A study of Mus musculus with 12 samples.

Results

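The genes described here are 43 antioxidant and glutathione defence genes of the mouse. They were chosen by function and fall into thioredoxin and peroxiredoxin (12 genes), glutathione (19), superoxide and catalase (4), metallothionein (3) and regulators with other genes (5). Signals were read from 4 groups of 3 female C57BL/6J mice, which were aged injured, young injured, aged intact and young intact, with 1 array for each mouse and 12 arrays in all. Aged mice were 15 to 18 months old and young mice 2 to 3 months old, and the cord segment at Th9 was taken from the injured mice 9 days after a contusion at that level (SCI). The intact mice were naive, so the comparison with them holds the anesthesia and the laminectomy together with the contusion, and every mouse was perfused with heparinized saline before the cord was removed. Of the 43 genes, 39 had at least 1 probe paired with no other gene on the GeneChip Mouse Genome 430 2.0 array, out of 18194 genes with such a probe. Each was read from its probe of highest mean signal over the 12 arrays. The array carried no such probe for Prdx5, Prdx6 and G6pdx in the annotation used here, and the probes of Prdx1 were all shared with a predicted gene, so these 4 genes were not analysed here. The values are MAS 5.0 signals, a linear brightness in arbitrary units scaled so that the trimmed mean of each array is 100, and genes whose mean signal passed 50 in any group were tested, 37 of these 39 among them. Txnrd2, the mitochondrial thioredoxin reductase, and Sod3, the extracellular superoxide dismutase, had group means under 50 in all 4 groups and no fold is given for them.

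Cells hold peroxides and superoxide in check with a few linked systems. Superoxide dismutases turn superoxide into hydrogen peroxide, which catalase, glutathione peroxidases and peroxiredoxins then turn to water. Glutathione and thioredoxin give up electrons in these steps, and reductases recharge them with NADPH. Glutathione transferases join glutathione to reactive lipids and other electrophiles, metallothioneins bind zinc and copper, and the transcription factor NRF2, held back by KEAP1, drives many of these genes. In the injured spinal cord oxidants come from damaged mitochondria and from phagocytes that enter or multiply in the lesion, and several of these enzymes are made mainly by glia or by phagocytes.

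On each array 35.05% to 36.73% of the probes passed a signal of 50. The aged injured cords differed most among themselves, with a median standard deviation of the log2 signal of 0.19 over the 37 genes, against 0.14 in young injured, 0.08 in aged intact and 0.07 in young intact cords, and over all 10511 genes tested these medians were 0.19, 0.14, 0.09 and 0.09 in the same order. Aged injured replicate 1 was the highest of its group for 14 and the lowest for 17 of the 37 genes. Replicate 2 was close to this, being highest for 11 and lowest for 18. The neuron markers of replicate 1, summed, had a signal of 1897, against 12268 and 8000.5 in aged injured replicates 2 and 3. Counts are therefore also given without replicate 1. A segment of cord is a mixture of cells, and fewer cells of a type and less RNA in each cell cannot be told apart in these signals.

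After SCI these genes divided, with more of them higher than lower in aged and in young mice. Calls rest on limma, fitted to the log2 signals of all 10511 genes on the 12 arrays, with a Benjamini-Hochberg adjusted p under 0.05 in either direction. In aged mice 15 of the 37 genes were called higher and 11 lower after SCI, which is 70.27% called, against 75.5% of all genes tested (35.6% higher and 39.9% lower). In young mice 17 were called higher and 11 lower, which is 75.68%, against 68.0% of all genes tested (33.9% higher and 34.1% lower). The shares called were thus near the background in both ages. The median log2 fold change of the 37 genes was -0.00 in aged and 0.20 in young mice, against -0.04 and -0.00 over all genes. The 3 injured and the 3 intact arrays did not overlap for 27 of the 37 genes in aged and 30 in young mice, against 78.3% and 76.1% of all genes tested. Of the 37 genes, 14 were higher in both ages, 10 were lower in both and 7 were called in neither. Without aged injured replicate 1 the counts were 15 higher and 12 lower in aged and 19 higher and 11 lower in young mice. In that fit 72.1% of all genes tested were called in aged and 72.7% in young mice.

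**Figure D1:**
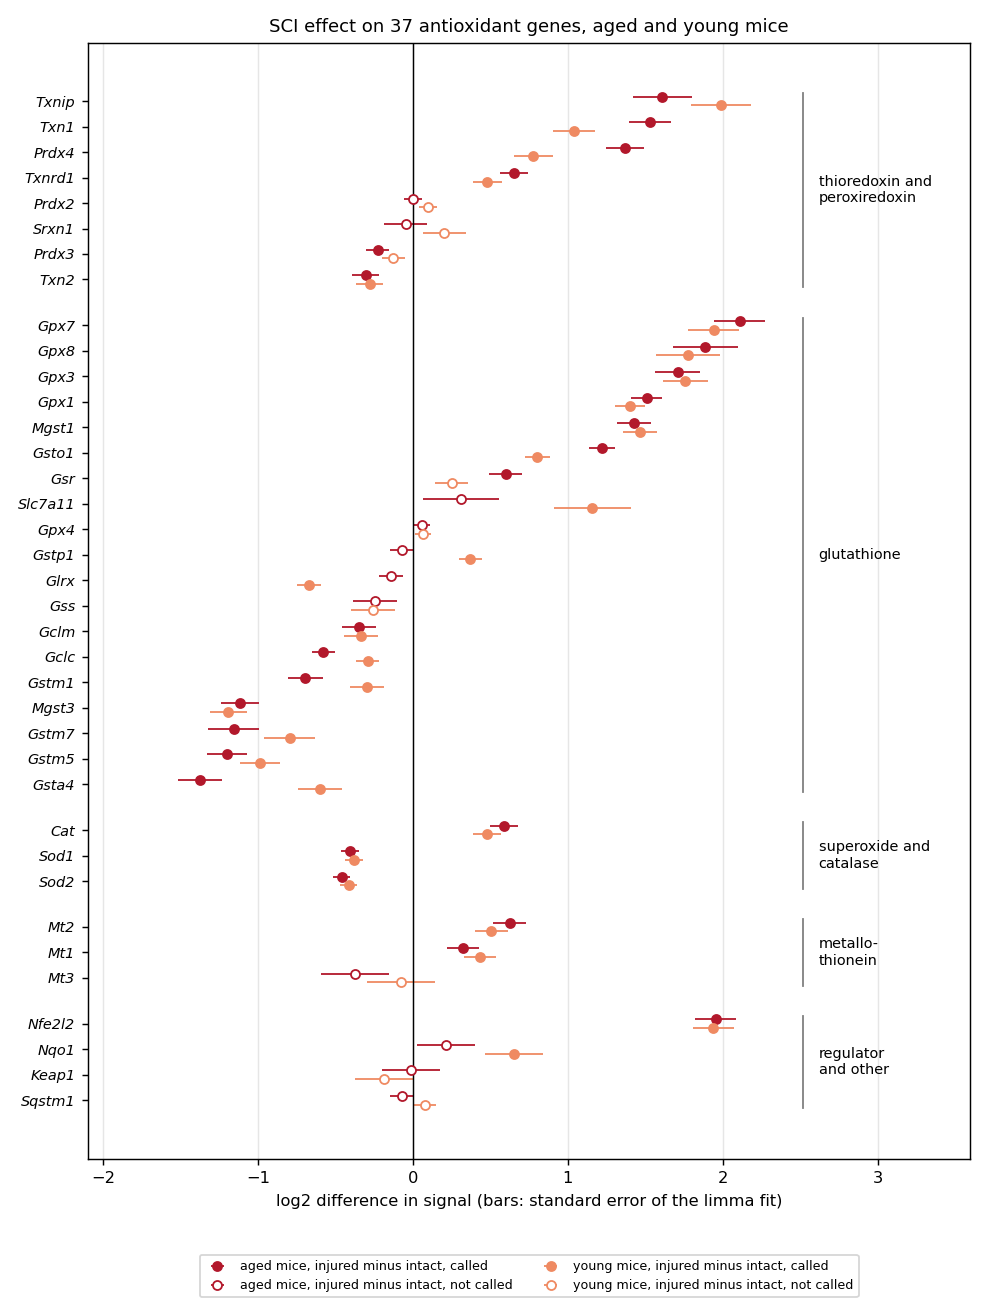
Log2 difference in signal between injured and intact cord for the 37 genes tested, by class, in aged mice (dark red) and young mice (orange). Points are limma estimates from 3 mice a group, bars are standard errors, and filled points passed an adjusted p of 0.05. The glutathione peroxidase genes Gpx7, Gpx8, Gpx3 and Gpx1 lie between 1.40 and 2.11 in both ages, and the transferase genes Mgst3, Gstm7, Gstm5, Gstm1 and Gsta4 lie below 0.

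Among the regulators, Nfe2l2, the gene of NRF2, was higher after SCI at both ages. Its signal was 1447, 1063 and 1020.4 in aged injured cords and 1090.1, 836 and 1073 in young injured cords, against 293, 314 and 292 in aged intact cords and 255, 262 and 259 in young intact cords. Every injured array lay above every intact array. The ratio of means was 3.92 in aged mice (log2 fold change 1.96, standard error 0.13, limma adjusted p = 4.51e-07) and 3.86 in young mice (log2 fold change 1.94, standard error 0.13, limma adjusted p = 6.48e-07). Keap1, the adaptor that targets NRF2 for destruction, had overlapping arrays in both comparisons and log2 fold changes of -0.01 in aged and -0.19 in young mice (limma adjusted p of 0.960 and 0.391). Sqstm1, the autophagy receptor p62 that binds KEAP1, was not called either, at -0.07 and 0.08 (limma adjusted p of 0.393 and 0.377). Nqo1, a quinone reductase and a standard NRF2 target, was a dim gene. It was called in young mice, at least 1.51-fold higher after SCI with signals of 72.9, 75.8 and 77.2 in young injured cords, against 41.8, 65.3 and 40.5 in young intact cords (limma adjusted p = 0.0101), and was not called in aged mice, at 58.8, 52.2 and 76.3 in aged injured cords, against 54.7, 50.5 and 54.5 in aged intact cords (limma adjusted p = 0.319). The difference between the ages in its response was not called (limma interaction, adjusted p = 0.438).

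NRF2 binds the antioxidant response element, whose core TGACNNNGC was searched on both strands in the RefSeq promoter windows (GRCm38.p6, from 250 bases before to 50 bases after each gene start). The core was present in 12.392% of 32851 windows and in at least 1 window of 13.991% of 27025 genes, and in 11 of the 38 genes described here that had a window (28.947%). Of these 11 genes 4 were higher and 4 lower after SCI at both ages, 1 was not called (Srxn1) and 2 had no probe of their own (Prdx1 and G6pdx). Of the 37 genes tested, with or without the core, 14 were higher and 10 lower at both ages. Of all genes tested 75.5% were called in aged and 68.0% in young mice. Of the 4 lower genes, Sod1 did not keep its direction on every probe, and the call of Gclm in young mice ended without either of 2 arrays. The 8 called genes are shown as stretches of 29 bases with the core, or its reverse complement, in capitals, first the 4 higher genes and then the 4 lower ones. They lie at chr10:82859104-82859132 (Txnrd1, plus strand), chr6:138140461-138140489 (Mgst1, plus strand), chr2:75704885-75704913 (Nfe2l2, minus strand), chr8:94172529-94172557 (Mt2, plus strand), chr3:122245413-122245441 (Gclm, plus strand), chr3:107895802-107895830 (Gstm5, plus strand), chr3:107931725-107931753 (Gstm7, minus strand) and chr16:90220696-90220724 (Sod1, plus strand), each printed in the direction of its gene.
Txnrd1: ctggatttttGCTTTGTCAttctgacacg
Mgst1: gcggggcttgGCACGGTCAggaggcgggg
Nfe2l2: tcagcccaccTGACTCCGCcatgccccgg
Mt2: aaagggggtgTGACTCAGCgcggggggtg
Gclm: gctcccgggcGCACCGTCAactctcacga
Gstm5: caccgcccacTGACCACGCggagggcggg
Gstm7: tctgaagaccTGACAAAGCgaagccaatc
Sod1: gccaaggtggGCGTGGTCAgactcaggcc
The core of Mt2 also holds TGACTCA, the site of the AP-1 factors, as does that of Prdx1. A match of letters is a description and was not tested as a binding site.

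In the thioredoxin and peroxiredoxin class Txn1, Txnrd1, Txnip and Prdx4 were higher after SCI at both ages, and the mitochondrial Txn2 was lower at both. In aged mice 4 of the 8 genes tested were called higher and 2 lower, and in young mice 4 higher and 1 lower. Txnip, which binds and inhibits thioredoxin, had signals of 740.4, 532 and 464 in aged injured cords and 738, 451 and 622 in young injured cords, against 196, 202 and 162 in aged intact cords and 148, 147 and 153 in young intact cords. The injured arrays varied widely but all lay above the intact ones, with ratios of means of 3.10 in aged mice (log2 fold change 1.61, limma adjusted p = 2.51e-05) and 4.05 in young mice (log2 fold change 1.99, limma adjusted p = 8.02e-06). Txn1, the cytosolic thioredoxin, had signals of 3284, 2109 and 2679 in aged injured cords and 2257, 2038 and 1777 in young injured cords, against 900.5, 941 and 909.5 in aged intact cords and 999, 995 and 949.7 in young intact cords. Again no injured array reached down to an intact one, and the ratios of means were 2.93 in aged (limma adjusted p = 2.99e-06) and 2.06 in young mice (limma adjusted p = 6.74e-05).

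Prdx4, a peroxiredoxin of the endoplasmic reticulum, rose by 1.37 in aged and 0.78 in young mice on the log2 scale, and Txnrd1, the cytosolic thioredoxin reductase, by 0.65 and 0.48. The mitochondrial genes moved the other way. Txn2 fell by 0.31 in aged and 0.28 in young mice, and Prdx3, the mitochondrial peroxiredoxin, had a log2 fold change of -0.23 in aged mice, where it was called (limma adjusted p = 0.0152), and -0.13 in young mice, where it was not (limma adjusted p = 0.145). Its call in aged mice ended without aged intact replicate 1 (limma adjusted p = 0.0668), and that of Txn2 in young mice ended without young injured replicate 1 (limma adjusted p = 0.0558). Srxn1, which repairs overoxidized peroxiredoxins, was not called at either age in the main fit, with -0.05 in aged and 0.20 in young mice. In young mice Srxn1 was called higher without aged injured replicate 1 (limma adjusted p = 0.0375) and with array weights (limma adjusted p = 0.0456). Prdx2 depended on the probe. The probe of highest signal gave 1431, 1659.7 and 1515 in aged injured cords and 1524, 1588 and 1581 in young injured cords, against 1544, 1551 and 1509 in aged intact cords and 1450.1, 1431 and 1512 in young intact cords, with no call. Its other probe above the cutoff gave 236, 318 and 272 in aged injured cords and 287, 363 and 358 in young injured cords, against 561, 547 and 462 in aged intact cords and 570.2, 538 and 501 in young intact cords. On this probe Prdx2 was lower after SCI, by log2 fold changes of -0.93 in aged (limma adjusted p = 6.73e-05) and -0.68 in young mice (limma adjusted p = 0.000818), so the direction for Prdx2 is not settled. Of the 37 genes 17 had another probe above the cutoff, and of 34 called values after SCI that could be set beside one, 32 had the same sign and 30 were called there too.

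The genes that make glutathione were lower or did not pass the test, while 4 peroxidases that use it or belong to its family were higher. Gclc and Gclm, the catalytic and modifier subunits of glutamate-cysteine ligase, the first step of glutathione synthesis, were lower at both ages. Gclc had log2 fold changes of -0.58 in aged and -0.29 in young mice (limma adjusted p of 3.81e-05 and 0.00467), and Gclm of -0.35 and -0.34 (limma adjusted p of 0.0125 and 0.0174). The call of Gclm in young mice ended without young intact replicate 1 or young injured replicate 1 (limma adjusted p of 0.0575 to 0.0703). Gss, which adds glycine in the second step, was not called, at -0.25 and -0.26. Without young injured replicate 1 it was called lower in young mice (-0.38, limma adjusted p = 0.0385). Gsr, the reductase that recharges oxidized glutathione, was called in aged mice, with a log2 fold change of 0.60 (limma adjusted p = 0.000402), and not in young mice, with 0.25 (limma adjusted p = 0.0574). Slc7a11, the cystine carrier xCT that brings in the limiting amino acid, had signals of 143, 77.4 and 114 in aged injured cords, against 104, 66.9 and 94.6 in aged intact cords, which overlap. In young mice its signals were 154, 136 and 193 in young injured cords, against 66.8, 89.0 and 60.7 in young intact cords, which do not (log2 fold change 1.16, standard error 0.25, limma adjusted p = 0.00176). The difference between the ages in the response was not called for Slc7a11 (-0.85, limma interaction, adjusted p = 0.265) nor for Gsr (0.35, adjusted p = 0.285).

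Gpx1, Gpx3, Gpx7 and Gpx8 rose after SCI at both ages. Gpx7, a peroxidase of the endoplasmic reticulum, had signals of 243, 182 and 227 in aged injured cords and 327, 213 and 233 in young injured cords, against 52.8, 52.5 and 45.1 in aged intact cords and 58.0, 70.5 and 69.8 in young intact cords. Gpx8, which sits in the membrane of the same compartment, had 593, 344 and 505 in aged injured cords and 867, 558 and 630.4 in young injured cords, against 138, 130.1 and 113 in aged intact cords and 189, 229 and 176 in young intact cords. For both genes each injured array was above every intact array, although the injured arrays of each group differed widely among themselves. Gpx3, the secreted peroxidase of plasma, had 266, 207 and 254 in aged injured cords and 242, 191 and 256 in young injured cords, against 69.2, 79.7 and 72.5 in aged intact cords and 78.8, 59.0 and 65.7 in young intact cords. Gpx1, the abundant cytosolic peroxidase, had 3910.4, 3185 and 3489 in aged injured cords and 2987, 2476 and 3144 in young injured cords, against 1269.5, 1291 and 1148 in aged intact cords and 1088, 1131 and 1025 in young intact cords. None of the injured arrays overlapped the intact ones for these genes either. The ratios of means in aged mice were 4.33 for Gpx7, 3.78 for Gpx8, 3.28 for Gpx3 and 2.85 for Gpx1 (limma adjusted p of 3.69e-07 to 1.45e-05), and in young mice 3.90, 3.46, 3.38 and 2.65 (limma adjusted p of 8.49e-07 to 3.23e-05). Gpx4, which reduces lipid peroxides in membranes, differed by little, with log2 fold changes of 0.06 at both ages, a standard error of 0.05 and limma adjusted p of 0.330 in aged and 0.278 in young mice.

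**Figure D2:**
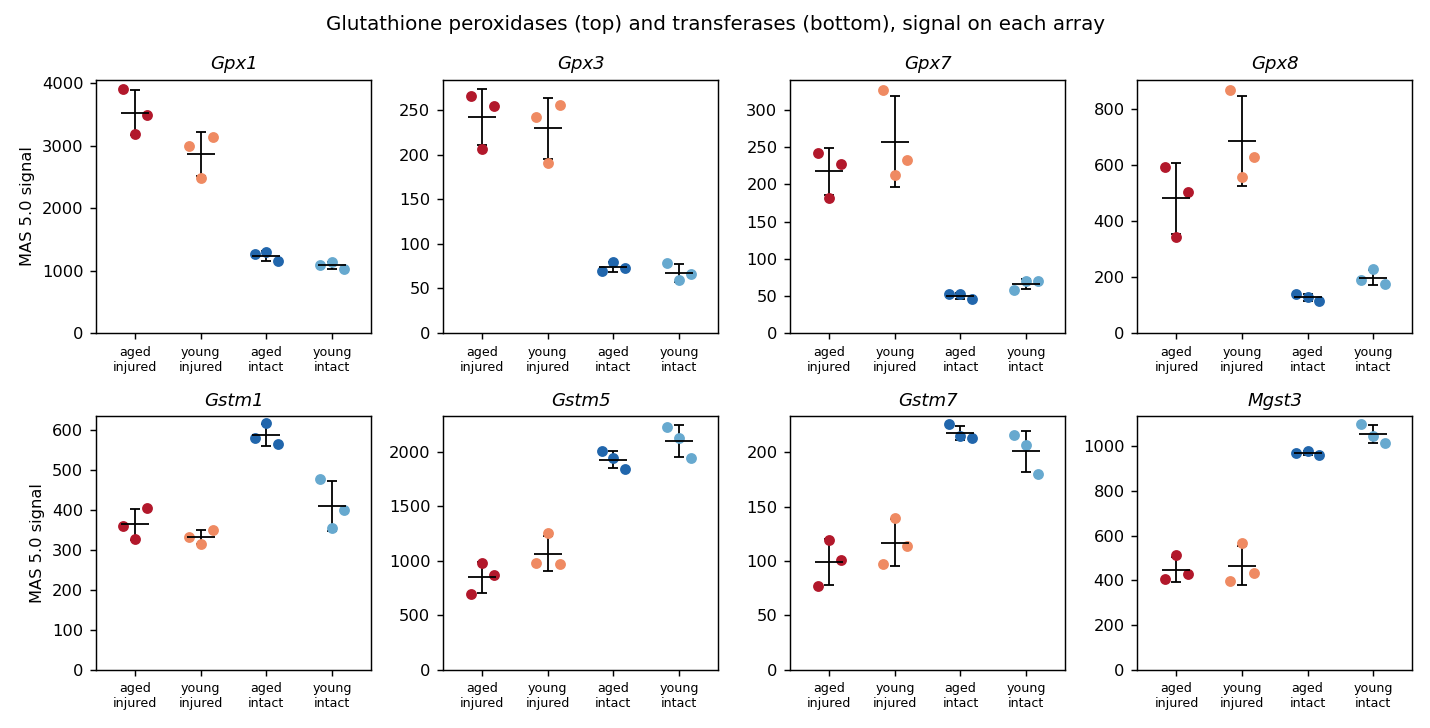
MAS 5.0 signal of 4 glutathione peroxidase genes (top) and 4 transferase genes (bottom) on each of the 12 arrays, with the mean and SD of 3 mice a group, on linear axes that start at 0. The peroxidase genes are higher in the 6 injured cords than in any intact cord, while Gstm5, Gstm7 and Mgst3 are lower in all 6. Gstm1 is set apart by its aged intact cords, which lie at 565 to 619.8.

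The transferases divided. Mgst1 and Gsto1 were higher after SCI and Gsta4, Gstm1, Gstm5, Gstm7 and Mgst3 were lower at both ages. Mgst1, a transferase of the endoplasmic reticulum and outer mitochondrial membranes, had signals of 2650.2, 1997 and 2279 in aged injured cords and 2337, 1903 and 2374 in young injured cords, against 855, 866 and 832 in aged intact cords and 838, 810.4 and 734 in young intact cords. Its ratio of means was 2.71 in aged (limma adjusted p = 1.10e-06) and 2.78 in young mice (limma adjusted p = 1.22e-06). Mgst3, which belongs to the same membrane family, had 404, 512 and 429.9 in aged injured cords and 399, 566 and 434 in young injured cords, against 969, 979 and 962 in aged intact cords and 1098, 1049 and 1017 in young intact cords. Here every injured array lay below every intact one, and the log2 fold changes were -1.12 in aged (limma adjusted p = 1.31e-05) and -1.19 in young mice (limma adjusted p = 1.17e-05). Gstm5 fell by 1.20 in aged and 0.99 in young mice on the log2 scale, and Gstm7 by 1.16 and 0.80. Gstm1, a transferase of the mu class to which both belong, had log2 fold changes of -0.69 in aged (limma adjusted p = 0.000188) and -0.30 in young mice (limma adjusted p = 0.0335). The call in young mice ended with quantile normalization and without young intact replicates 1 or 3 or young injured replicates 1 or 2 (limma adjusted p of 0.0582 to 0.145). The mu genes lie side by side on chromosome 3 in the order Gstm5, Gstm7, Gstm6, Gstm3, Gstm2, Gstm1 and Gstm4. Gstm2, which stands next to Gstm1, was higher after SCI, with mean signals of 132 in aged injured and 140.1 in young injured cords, against 43.3 in aged intact and 49.1 in young intact cords (at least 2.64-fold and at least 2.80-fold, limma adjusted p of 0.000117 and 0.000220), and Gstm4 was not called. Gstm6 and Gstm3 have no value in this fit, and Gstm2 passed the cutoff only through the injured cords. So the neighbours Gstm2 and Gstm1 differed in direction, and cross-hybridization between mu transcripts was not tested.

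In the superoxide and catalase class Sod2 was lower and catalase was higher at both ages, while the direction for Sod1 depended on the probe. Cat had log2 fold changes of 0.59 in aged and 0.48 in young mice (limma adjusted p of 0.000143 and 0.000782). Sod2, the mitochondrial manganese dismutase, had 546, 577 and 552 in aged injured cords and 580.2, 578 and 535 in young injured cords, against 775, 769.7 and 760.3 in aged intact cords and 741, 775 and 739.9 in young intact cords. It fell by 0.46 in aged and 0.42 in young mice on the log2 scale (limma adjusted p of 2.59e-05 and 8.02e-05). Sod1, the cytosolic copper and zinc dismutase, had 1424, 1404 and 1523 in aged injured cords and 1403, 1482 and 1469 in young injured cords, against 2022, 1964 and 1793 in aged intact cords and 1906, 1902 and 1857 in young intact cords, and fell by 0.41 and 0.38. This rests on the probe of highest signal. Of the other Sod1 probes above the cutoff, one gave -0.14 in aged mice, where it was called, and -0.02 in young mice (limma adjusted p = 0.748), and the other gave 0.10 and 0.30 with no call (limma adjusted p of 0.516 and 0.0694).

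Mt1 and Mt2 were higher after SCI at both ages and Mt3, the isoform of neurons and astrocytes, was not called. Mt1 had signals of 4296, 5368 and 5479.9 in aged injured cords and 6203, 5398 and 6762 in young injured cords, against 4024, 4274 and 3739 in aged intact cords and 4528, 4719 and 4297 in young intact cords. Mt2 had 3327, 4109.5 and 4311 in aged injured cords and 4661, 4133 and 5160.4 in young injured cords, against 2338, 2746 and 2504 in aged intact cords and 3359.8, 3301 and 3139 in young intact cords. Within each age the injured and intact arrays of both genes did not overlap, but the lowest aged injured arrays reached the young intact range. The log2 fold changes of Mt1 were 0.32 in aged (limma adjusted p = 0.0146) and 0.43 in young mice (limma adjusted p = 0.00361), and those of Mt2 0.62 and 0.50 (limma adjusted p of 0.000291 and 0.00164). The call of Mt1 in aged mice ended with quantile normalization and without aged intact replicate 3 or aged injured replicate 3 (limma adjusted p of 0.0570 to 0.567). Mt3 had 184, 340.5 and 386 in aged injured cords, against 369, 420.3 and 341 in aged intact cords, and its log2 fold change in aged mice was -0.37 with all arrays and -0.05 without aged injured replicate 1, with no call either way, but -0.58 without aged injured replicate 3, where it was called (limma adjusted p = 0.0287).

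The 3 genes follow one another on chromosome 8, in the order Mt3, Mt2 and Mt1, and their promoter windows are shown for their metal response elements, the sites of the zinc-sensing factor MTF1, which differ in number between them. The element was searched as TGCACNC or TGCGCNC on both strands and is in capitals, as its reverse complement where it lies on the other strand. Mt1 (chr8:94178839-94179138) held 3, Mt2 (chr8:94172368-94172667) 4 and Mt3 (chr8:94152357-94152656) 1, all windows of GRCm38.p6 on the plus strand from RefSeq, and 1.969% of 32851 windows held 3 or more.
Mt1: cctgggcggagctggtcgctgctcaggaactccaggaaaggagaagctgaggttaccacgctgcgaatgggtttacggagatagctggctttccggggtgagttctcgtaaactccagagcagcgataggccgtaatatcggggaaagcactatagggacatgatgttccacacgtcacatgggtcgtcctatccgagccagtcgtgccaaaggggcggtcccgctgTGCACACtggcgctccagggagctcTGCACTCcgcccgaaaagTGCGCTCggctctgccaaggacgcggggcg
Mt2: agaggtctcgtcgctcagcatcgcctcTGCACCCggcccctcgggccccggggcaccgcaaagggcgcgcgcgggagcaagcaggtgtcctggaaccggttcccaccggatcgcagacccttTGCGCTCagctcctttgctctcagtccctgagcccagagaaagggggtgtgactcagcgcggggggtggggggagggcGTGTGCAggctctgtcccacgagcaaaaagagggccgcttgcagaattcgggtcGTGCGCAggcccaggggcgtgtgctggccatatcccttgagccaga
Mt3: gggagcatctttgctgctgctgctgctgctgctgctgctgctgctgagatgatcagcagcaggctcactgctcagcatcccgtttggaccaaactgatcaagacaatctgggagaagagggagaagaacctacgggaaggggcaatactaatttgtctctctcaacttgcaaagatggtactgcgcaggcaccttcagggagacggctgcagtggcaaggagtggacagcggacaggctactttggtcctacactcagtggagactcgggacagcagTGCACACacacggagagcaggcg
Of the 38 genes with a window, 13 held at least 1 such element and 3 held 3 or more, the third being Gclm. Over all 27025 genes with a window, 28.233% held at least 1 element and 2.268% held 3 or more, and 25.704% of single windows held at least 1. Antioxidant and metal response elements overlapped in 1 of the 47 windows of these genes.

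Between aged and young injured cords, 4 genes were called on the probes used, and all belong to the glutathione class. Glrx and Gsto1 had the higher signal in aged injured cords, and Gstp1 and Gsta4 the lower one. This is 10.81% of the 37 genes, against 8.99% of all genes tested (4.41% higher and 4.58% lower), and 15 of the 37 had an unadjusted p under 0.05 (40.5%, against 30.1% of all genes). Glrx, a glutaredoxin that removes glutathione from proteins, had signals of 349, 284 and 306 in aged injured cords, against 218, 227 and 224 in young injured cords, and 349, 345 and 336 in aged intact cords, against 369, 356 and 341 in young intact cords. The young injured cords were the lowest, and aged injured replicates 2 and 3 also lay below every intact array. The log2 fold change between the ages after SCI was 0.48 (standard error 0.08, limma adjusted p = 0.00899). Gsto1, the omega-class transferase with a glutaredoxin-like fold, had 1132, 909.6 and 1053 in aged injured cords, against 785, 759.5 and 722 in young injured cords, and 462, 416 and 446 in aged intact cords, against 428, 445 and 427 in young intact cords. Injured cords were above intact ones at both ages, and the aged injured cords were the highest (log2 fold change between the ages 0.44, standard error 0.08, limma adjusted p = 0.0141). The second probes of Glrx and Gsto1 gave 0.50 and 0.38 and were called too (limma adjusted p of 0.0369 and 0.0372). Other probes of 2 genes outside the glutathione class, not called on the probe used, were called as lower in aged mice. They belong to Txn2 (-0.29, limma adjusted p = 0.0473) and Mt1 (-1.15 as fitted, limma adjusted p = 0.0262), the Mt1 probe being dim, at 20.6, 31.9 and 20.6 in aged injured cords, against 55.4, 49.3 and 54.3 in young injured cords.

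Gstp1, the pi-class transferase, had 1781, 2135 and 2056 in aged injured cords, against 2573, 2606 and 2629 in young injured cords, and 2173, 2175 and 1931 in aged intact cords, against 2082, 2001 and 1955 in young intact cords. Here the young injured cords alone stood high, and the log2 fold change between the ages after SCI was -0.39 (standard error 0.07, limma adjusted p = 0.0150). Gsta4, which conjugates the lipid peroxidation product 4-hydroxynonenal, had 200.4, 327 and 293 in aged injured cords, against 382, 431 and 429 in young injured cords, and 721, 689.7 and 677 in aged intact cords, against 618, 623 and 640.0 in young intact cords. All 4 groups were separate, with the aged injured cords lowest, and the log2 fold change between the ages after SCI was -0.63 (standard error 0.14, limma adjusted p = 0.0272), or -0.42 without aged injured replicate 1 (limma adjusted p = 0.0106). For each of the 4 genes the aged injured and young injured arrays did not overlap, as for 9 of the 37 genes and 28.1% of all genes tested. These calls draw on the spread within all 4 groups. When only the 6 injured arrays were fitted none of the 4 passed, nor did any of the 10511 genes (limma adjusted p of 0.141 for Glrx, Gsto1 and Gstp1 and 0.178 for Gsta4), and the call of Gsta4 also ended without young injured replicate 1, 2 or 3 (limma adjusted p of 0.0561 to 0.0823). Without aged injured replicate 1 the same 4 genes were called, and 5.93% of all genes were called in that fit. Without aged injured replicate 2, 10 genes were called, and 29.1% of all genes. The added ones were Gpx1, Gsr, Prdx4, Txn1 and Txnrd1 as higher and Gstm5 as lower in aged mice.

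**Figure D3:**
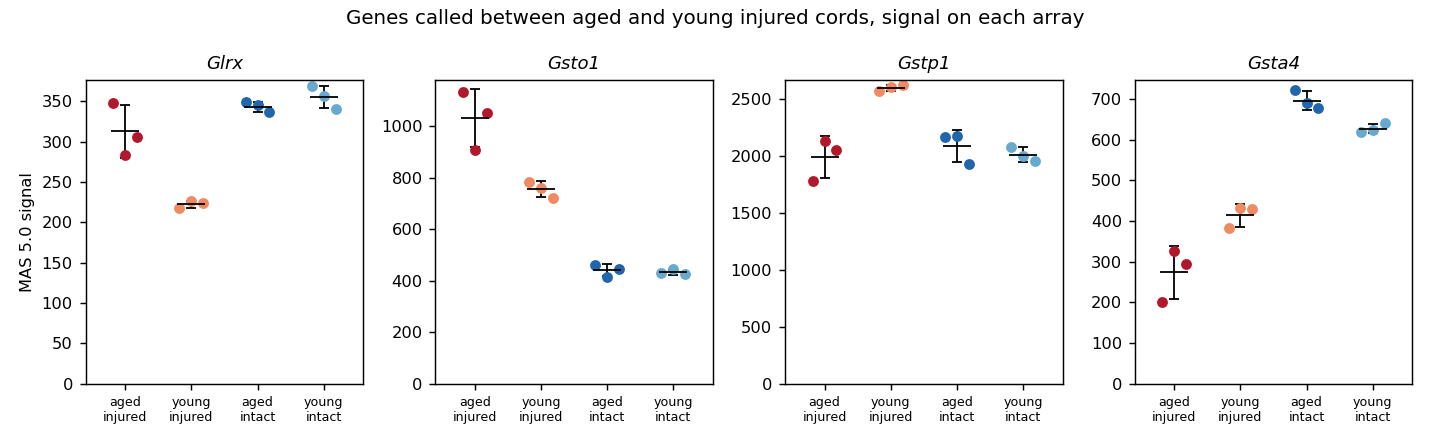
MAS 5.0 signal on each of the 12 arrays for the 4 genes called between aged and young injured cords, with the mean and SD of 3 mice a group, on linear axes that start at 0. The young injured cords lie lowest for Glrx and highest for Gstp1, and for Gsto1 and Gsta4 both injured groups differ from intact cord and the aged injured cords lie farthest from it.

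With the response to SCI set side by side, 6 genes were called at one age alone. Prdx3 (lower) and Gsr (higher) were called in aged mice, and Slc7a11, Gstp1 and Nqo1 (higher) and Glrx (lower) in young mice. Glrx had log2 fold changes after SCI of -0.14 in aged (limma adjusted p = 0.120) and -0.67 in young mice (limma adjusted p = 2.70e-05), and Gstp1 of -0.07 (limma adjusted p = 0.370) and 0.37 (limma adjusted p = 0.00106). Some of these calls turned on 1 array. Glrx was also called in aged mice without aged injured replicate 1 (-0.22, limma adjusted p = 0.0129), as was Slc7a11 without aged injured replicate 2 (0.55, limma adjusted p = 0.0486), and Gsr was also called in young mice without young injured replicate 2, aged intact replicate 1 or aged injured replicate 1 (limma adjusted p of 0.0260 to 0.0499). Other fits moved them too. Gstp1 was called lower in aged mice with quantile normalization (-0.19, limma adjusted p = 0.0465). With array weights Nqo1 (0.44, limma adjusted p = 0.0384) and Glrx (-0.17, limma adjusted p = 0.0102) were called in aged mice and Gsr in young mice (0.28, limma adjusted p = 0.0256), and Gsr was called there with only the young arrays as well (limma adjusted p = 0.0335). Of the 6 genes only Prdx3 gained no call at the other age under an alternative, and its own call in aged mice ended without aged intact replicate 1. The difference between the ages itself was called for none of the 37 genes, against 0.438% of all genes tested, while 10 of the 37 had an unadjusted p under 0.05 (27.0%, against 16.2% of all genes). The lowest limma adjusted p were 0.0726 for Glrx (0.53, standard error 0.11) and 0.0957 for Gstp1 (-0.45, standard error 0.10), followed by 0.124 for Gsta4 (-0.78) and 0.136 for Gsto1 (0.42). Without aged injured replicate 2, 6 genes passed, namely Glrx, Gsto1, Prdx4 and Txn1 with a positive and Gstp1 and Gsta4 with a negative difference, and 4.98% of all genes did.

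In intact cord none of the 37 genes was called between aged and young mice, against 0.809% of all genes tested, and 5 had an unadjusted p under 0.05 (13.5%, against 10.2% of all genes). The arrays of the ages did not overlap for 13 of the 37 genes, against 25.5% of all genes. Gstm1 came closest, at 582, 619.8 and 565 in aged intact cords, against 479, 355 and 400.4 in young intact cords (log2 fold change 0.53, standard error 0.11, limma adjusted p = 0.0656). Its other probes above the cutoff gave 0.54 and 0.45. The metallothionein Mt2 was 2338, 2746 and 2504 in aged intact cords, against 3359.8, 3301 and 3139 in young intact cords (log2 fold change -0.37, limma adjusted p = 0.206), and Gpx8 was 138, 130.1 and 113 in aged intact cords, against 189, 229 and 176 in young intact cords (log2 fold change -0.64, limma adjusted p = 0.282). Fitted with only the 6 intact arrays, Gstm1, Mt2 and Gpx8 passed, as did Sqstm1 with a log2 fold change of 0.26 (limma adjusted p of 0.00388 to 0.0434), and 4.70% of all genes passed in that fit. Without aged injured replicate 1, Gstm1 and Mt2 were called (limma adjusted p of 0.0275 and 0.0356), and 2.07% of all genes were called in that fit. Gstm1, Mt2 and Gpx8 were singled out here after their values were seen.

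Of 74 tested genes of 6 other lists on the same pathways, 78.4% were called after SCI in aged and 63.5% in young mice, against 75.5% and 68.0% of all genes tested, so the counts of these lists lie near the background. Of 23 other NRF2 targets and redox enzymes tested, 12 were higher and 6 lower after SCI at each age, with a median log2 fold change of 0.30 in aged and 0.36 in young mice. Hmox1, the heme oxygenase, was at least 6.11-fold higher in aged and at least 2.90-fold higher in young mice, with mean signals of 306 in aged injured and 145 in young injured cords, against 11.6 and 9.87 in aged and young intact cords. Blvrb, a biliverdin reductase, was 4.57-fold higher in aged and 3.82-fold higher in young mice. Akr1b8, an aldo-keto reductase, was 4.95-fold higher in aged and at least 4.08-fold higher in young mice. Of 11 genes of NADPH supply 7 were higher and 3 lower in aged and 6 higher and 2 lower in young mice, led by Pgd and Pgls of the pentose phosphate pathway, at 4.07-fold and 3.59-fold in aged mice and 3.04-fold and 2.97-fold in young mice. Of 19 other genes of glutathione transfer and turnover, 4 were higher and 9 lower in aged and 5 higher and 4 lower in young mice. Among them Slc1a1, the neuronal transporter of glutamate and cysteine, was 3.13-fold lower in aged and 2.21-fold lower in young mice.

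Of 14 listed genes of the NADPH oxidase and other oxidant sources, 10 had a probe and 6 were tested. All 6 were higher at both ages, with median log2 fold changes of 3.82 in aged and 3.72 in young mice. Cybb and Cyba, the membrane subunits of the phagocyte oxidase, had mean signals of 1428 and 2102 in aged injured and 851 and 1397 in young injured cords, against 39.6 and 89.2 in aged intact and 24.5 and 63.0 in young intact cords. Xdh, xanthine dehydrogenase, was at least 7.48-fold higher in aged and at least 4.65-fold higher in young mice. Cybb and Xdh had intact means at or under 50 at both ages. They passed the cutoff only through the injured cords, so a higher value after SCI follows from the filter. Of 7 partners of KEAP1 and NRF2, 4 were higher and 2 lower in aged and 2 were higher in young mice. Bach1, a repressor that competes for the same element as NRF2, was 2.87-fold higher in aged and 2.77-fold higher in young mice. Of 8 genes of selenoprotein synthesis 4 were higher and 1 lower in aged and 3 higher and 1 lower in young mice. Between aged and young injured cords 6 genes of these lists were called (8.11%, against 8.99% of all genes), with Blvra (0.79), Msrb1 (0.51), Mgst2 (1.46 as fitted and at least 1.25-fold) and Sephs2 (0.48) higher in aged mice and Ephx1 (-0.47) and Me1 (-0.44) lower. Of the 74 genes of these lists limma called 0 for age in intact cord and 0 for the difference between the ages in the response, where 15 and 17 had an unadjusted p under 0.05 (20.3% and 23.0%, against 10.2% and 16.2% of all genes).

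Cell type markers also differed between the groups. All 18 macrophage and microglia markers were higher after SCI at both ages, and their summed signal was 46684.7 to 54502.5 in aged injured and 36700.9 to 47377.1 in young injured cords, against 6241.0 to 6657.4 in aged intact and 3480.2 to 3909.5 in young intact cords. Itgam, Mrc1, Msr1 and Gpnmb were at or under 50 in both intact groups and passed the cutoff only through the injured cords. Between the ages, 6 of the 18 markers were higher in aged mice after SCI and 11 in aged mice with intact cords. The difference between the ages in the response was called negative for 5 of the 18, against 0.304% of all genes tested. All 13 neuron markers tested were lower after SCI in aged and 8 in young mice, and 0 were called between aged and young injured cords. Their sums were 1897.1 to 12267.6 in aged injured and 8593.9 to 13276.3 in young injured cords. In intact cords they were 25732.8 to 26327.6 in aged and 24930.6 to 26149.3 in young mice. Of 12 astrocyte markers 9 were lower in aged mice, while 2 were higher and 1 lower in young mice, and 7 were lower in aged than in young injured cords. Their sums were 12784.7 to 21081.9 in aged injured and 24471.4 to 27772.1 in young injured cords, against 23180.2 to 24170.1 in aged intact and 24707.0 to 25243.2 in young intact cords. Of 11 oligodendrocyte and myelin markers 6 were lower in aged mice, while 1 was higher and 3 lower in young mice, with sums of 17727.8 to 25348.8 in aged injured and 27363.9 to 29234.4 in young injured cords, against 26007.1 to 27543.5 in aged intact and 30660.5 to 32672.2 in young intact cords.

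**Figure D4:**
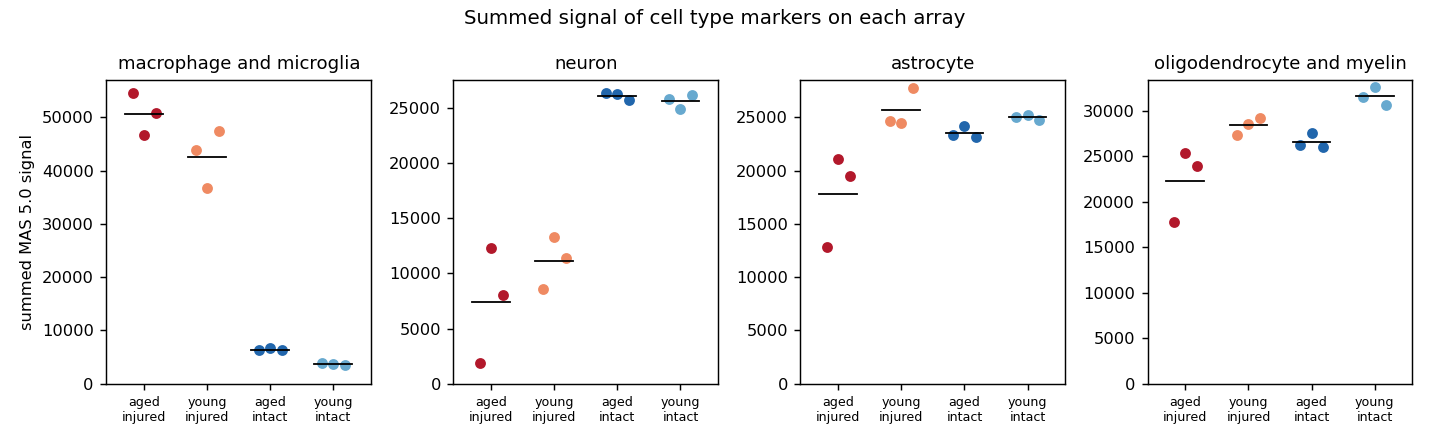
Summed MAS 5.0 signal of the macrophage and microglia, neuron, astrocyte, and oligodendrocyte and myelin markers on each of the 12 arrays, with the mean of 3 mice a group as a line and axes that start at 0. Macrophage and microglia markers are higher in every injured cord than in any intact cord, and the astrocyte sum is lowest in the 3 aged injured cords.

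Of 8 fibroblast and meningeal markers 7 were higher in aged and 8 in young mice after SCI, at sums of 11619.6 to 15731.0 in aged injured and 12965.3 to 17486.4 in young injured cords, against 3346.9 to 4878.9 in aged intact and 4705.4 to 5232.8 in young intact cords. All 6 proliferation genes were higher after SCI at both ages and 5 of them were called higher in aged than in young injured cords. Their sums were 2615.4 to 4755.7 in aged injured and 1740.6 to 2131.2 in young injured cords. In intact cords they were 961.0 to 982.7 in aged and 1018.5 to 1043.4 in young mice. Mki67, Top2a, Cdk1 and Birc5 were at or under 50 in both intact groups. They passed the cutoff only through the injured cords, so their higher value after SCI follows from the filter. Of 6 neutrophil markers 2 were higher in aged and 1 in young mice, of 6 endothelial markers 1 was higher and 3 lower in aged and 1 higher in young mice, and of 3 Schwann cell markers 2 were lower in aged mice. The 4 red cell markers with a probe were under 50 in every group, with sums of at most 85.0. Neuron, astrocyte and myelin markers were above the cutoff in all 4 groups, as the label of the tissue asks, apart from Chat of motor neurons. The part of these shifts in cell content in the values of Gpx1, Gsto1, Mgst1 and the other called genes was not tested. Without aged injured replicate 1, the array with the lowest neuron sum, the called log2 fold changes in aged mice stayed on their side of 0, for instance 1.43 for Gpx1, 2.02 for Gpx7, -1.17 for Gsta4 and -1.05 for Mgst3.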

How the data were processed

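Each mouse gave 1 GeneChip Mouse Genome 430 2.0 array from RNA of its Th9 segment, and nothing was pooled. The authors converted the scans to signal intensities with MAS 5.0, and the deposited values are linear intensities with a trimmed mean of 100 on each array. Background correction and scaling were therefore theirs, and no further normalization was applied. The platform annotation names 1 gene for 34958 of the 45101 probes, which were used, several for 932 and no gene for 9211. Each gene was read from its probe of highest mean signal, and 10511 of 18194 genes had a group mean above 50. Probes whose name ends in x_at or s_at, such as those of Gstm1, Gsto1, Gss, Mt1 and Srxn1, can bind related transcripts.

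Log2 signals were fitted with limma 3.58.1 in R 4.3.3 (1 mean per group, 12 arrays, moderated variances with a trend on mean signal), and two-sided p-values were adjusted by the Benjamini-Hochberg method over all genes tested. A p from another probe of a gene comes from the same fit over 16954 probes. The comparisons were SCI in aged mice, SCI in young mice, age after SCI, age in intact cord and the interaction of both. Where a group mean was at or under 50 it was set to 50 and the fold given as "at least". The fit was also run on simulated data with independent arrays and the same spread in each group. That run does not cover the wider spread of the aged injured cords.

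The genes and lists were chosen with earlier results of these data known. Signals on every array are given for the 8 called genes of largest log2 fold change in each comparison. Gstm1, Mt1, Mt2, Mt3, Nqo1, Prdx2, Slc7a11, Sod1 and Sod2 were added to these after their values were seen. Groups come from the sample labels. In the main fit p-values rest on the spread between mice pooled over all 4 groups, which was not the same in each. Each group holds 3 mice, a number that limits the precision. Alternatives tried were quantile normalization, no cutoff, a cutoff of 100, a pseudocount of 16, no trend, only the arrays of the groups compared, the mean of all probes of a gene, array weights, a replicate block, each array left out and, chosen after seeing the data, other probes. Promoter windows are from RefSeq (GRCm38.p6).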

Additional observations from a re-analysis of the deposited data

How the results depend on the processing

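The number of genes called after SCI was stable, and the numbers called between the ages were not. With 1 array left out, 25 to 27 genes were called for SCI in aged mice and 26 to 30 in young mice, against 26 and 28 with all arrays. Of all genes tested, those fits called 70.9% to 75.7% in aged and 59.7% to 72.7% in young mice. Called under each listed alternative that tested them were 23 of the 26 genes in aged and 22 of the 28 in young mice. Other probes are left out of these counts. The 22 genes include Nqo1, whose group means were too low for it to be tested with the higher cutoff. For age after SCI the count of 4 became 0 with only the arrays of the injured groups, 8 (6 higher and 2 lower) with array weights and 3 to 10 with 1 array left out, the highest without aged injured replicate 2. For age in intact cord the count of 0 became 4 (2 higher and 2 lower) with only the intact arrays, 4 with array weights and 0 to 2 with 1 array left out. For the interaction it became 7 (4 positive and 3 negative) with array weights and 0 to 6 with 1 array left out, being 2 without aged injured replicate 1 and 6 without replicate 2. The weights, fitted gene by gene, ran from 0.132 for aged injured replicate 1 to 2.97 for aged injured replicate 3. With array weights the calls among all genes also became more, at 16.9% for age after SCI, 6.58% for age in intact cord and 7.87% for the interaction, against 8.99%, 0.809% and 0.438%. With 1 array left out these shares ran from 2.81% to 29.1%, 0.314% to 2.07% and 0.0665% to 4.98%, in the same order. The cause of these changes was not tested.

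Sod1 in young mice reversed with the mean of all probes (log2 fold change 0.17, adjusted p = 0.704), and another probe gave 0.10 in aged and 0.30 in young mice. Another probe of Prdx2 gave -0.68 in young mice, where the probe used gave 0.10 with no call. With the mean of all probes, the calls of Mgst1 (adjusted p = 0.906) and Gstm7 (0.115) in young mice and of Sod1 in aged mice (0.804) ended. This mean also weighs probes under the cutoff, and with it Prdx2 was called lower at -0.47 in aged and -0.29 in young mice.

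Replicate numbers are shared between the groups in the labels, but only 2 of 18 same-numbered pairs had deviations that correlated above 0.1 (range -0.113 to 0.667), and both were aged injured with young injured arrays, at 0.595 for replicate 1 and 0.667 for replicate 2, while replicate 3 gave 0.015. Arrays of different numbers were not correlated, so these values have no baseline, and whether injured arrays of the same number belong together was not tested. No label ties a number to a litter or day, so the mice were not treated as paired. With a replicate block 26, 28, 5, 0 and 0 genes were called for SCI in aged mice, SCI in young mice, age after SCI, age in intact cord and the interaction. The shares of all genes called were 75.0%, 67.7%, 9.91%, 0.675% and 0.209% in the same order. The gene added for age after SCI was Prdx4 (limma adjusted p = 0.0428). Dim genes such as Nqo1 and Slc7a11 lie near the cutoff, where signal over background limits what a fold can show.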
